A study of Bos taurus with 16 samples.

Results

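Endometrium of cows with subclinical endometritis was set against healthy endometrium on the day of insemination, day 0. The comparison used 6 of the 16 arrays of the series: 3 pools labelled healthy (HE) and 3 labelled subclinical (SE), taken by their labels. All donors, controls included, were superovulated cows, from a study of 49 animals, and their endometrium was sampled with a cytobrush 2 h before insemination. A cow counted as HE where the brush held 0 polymorphonuclear cells (PMN, mostly neutrophils) and as SE where it held any, so genes of neutrophils are not independent of the grouping. Each array carried RNA pooled over cows of the same status; the sources used here do not say how many cows made up a pool, nor their breed and age. After 2 rounds of amplification from 15 ng of RNA, each pool was hybridised to an Affymetrix bovine genome array. Values are log2 signals, on which a difference of 1 is a 2-fold difference. A probe set was kept where it was above 4 on at least 2 of the 6 arrays, which left 12742 of 24016, or 53.1%, standing for 6577 named genes. Replicates were pools, so every p-value below measures the spread between pools and not between cows. The limma fit took its spread from all 11 endometrium arrays, the 5 of day 7 included. A gene near background on day 7 varied little there, which can make its standard error and p-value for day 0 smaller.

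The bovine endometrium is lined by a secretory and in part ciliated epithelium over glands and stroma. Around oestrus it is under oestrogen, mucus and fluid are released, and neutrophils can cross into the lumen. Epithelial cells sense bacteria through Toll-like receptors, which signal through adaptor proteins to NF-kB; the answer includes interleukins, neutrophil-attracting chemokines, antimicrobial peptides and prostaglandins. Subclinical endometritis is inflammation of this lining without outward signs.

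Epithelial markers were high in all 6 pools. EPCAM, an epithelial adhesion protein, ranged from 14.21 to 14.55, and the epithelial keratin KRT18 from 11.65 to 12.06. Of 16 endothelial markers on the array 0 were kept, and of 10 erythrocyte and platelet markers 1 was. The filter kept 18 of 23 stromal fibroblast markers, 15 of 30 T cell and cytotoxic markers and 17 of 20 epithelial markers, so RNA of other cells was present, and signals of different probes give no share of cell types. Pools had 12325 to 12457 probe sets above the filter and median signals of 4.18 to 4.30. SE pool 2 was least like the rest. Correlated with each of the remaining pools it averaged 0.956, where every other pool averaged 0.973 to 0.976, and it had the highest value of the 6 pools for 21.4% of genes and the lowest for 34.7%. Its GAPDH control probes differed by 0.58 between the 3′ and 5′ ends, against 0.03 to 0.14 in the other pools. The 3′ to 5′ difference of the eIF4E control was 3.88 to 4.27 in SE and 3.70 to 3.85 in HE, and that of the EF1A control -3.10 to -2.93 in SE and -3.27 to -3.11 in HE (exact permutation test, two-sided, p = 0.1 for each, the smallest that 3 against 3 can give). The eIF4E and EF1A differences thus ran with the groups, while those of GAPDH, cyclophilin, actin and GST overlapped between the groups. The part of RNA quality in the results below was not tested.

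Against these pools limma called 3 of the 12742 probe sets at an adjusted p under 0.05 (0.0235%), 2 higher in SE (0.0157% of those tested) and 1 lower (0.00785%). The lower gene was PDZK1, a scaffold protein that anchors transporters at the apical membrane of epithelial cells. Its HE pools read 8.98, 8.44 and 8.94 and its SE pools 6.75, 6.67 and 6.92. The highest SE pool was thus 1.53 below the lowest HE pool, and PDZK1 fell by 2.01 (standard error 0.19), a 4.03-fold lower signal (limma, adjusted p = 0.0118). Its call was lost without HE pool 1 (adjusted p = 0.0559), without HE pool 3 (adjusted p = 0.0553) and in a fit of the 6 day 0 arrays alone (adjusted p = 0.235), with differences of -1.91, -1.94 and -2.01.

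The probe set with the largest called difference carries no gene name here and is called the unnamed transcript below. It was near background in HE, at 3.89, 3.85 and 3.95, and read 6.88, 9.14 and 7.39 in SE. It rose by 3.90 (standard error 0.45, limma adjusted p = 0.0238), with SE pool 2 highest. It passed the filter through the SE arrays alone, so it had to be higher in SE, and its call is not independent of the filter. The other higher probe set is annotated to EED, a core subunit of the Polycomb repressive complex that silences genes through histone methylation. It read 6.13, 6.22 and 6.40 in HE and 7.55, 7.36 and 7.77 in SE, and it rose by 1.31 (standard error 0.14; limma, adjusted p = 0.0222). The array holds 19 kept probe sets with that symbol, whose differences ran from -1.30 to 1.31, 8 higher and 11 lower, so the gene as a whole has no single direction here. Both calls were lost when any 1 of the HE pools was left out: adjusted p was then 0.0553 to 0.161 for EED and 0.0784 to 0.161 for the unnamed transcript. They were also lost in the 6 day 0 arrays alone (adjusted p = 0.34 for EED and 0.577 for the unnamed transcript), and the unnamed transcript was not called without the filter (adjusted p = 0.0916).

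**Figure D1:**
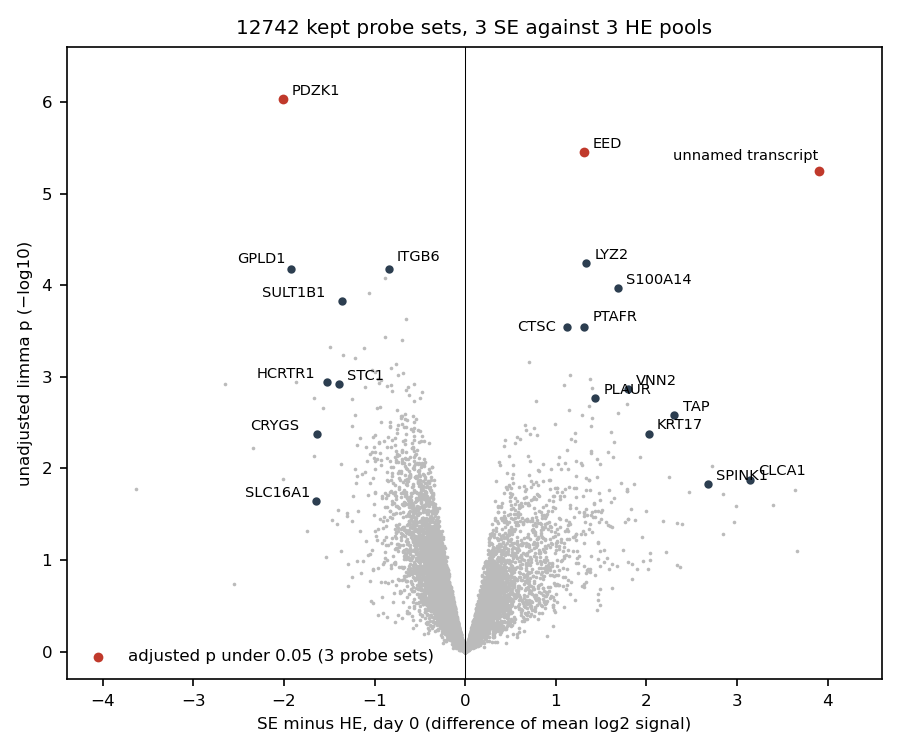
Each point is 1 of the 12742 kept probe sets, with the difference of mean log2 signal, SE minus HE on day 0, on the horizontal axis and the unadjusted limma p on a −log10 scale on the vertical axis. The 3 called probe sets are red; dark points are other genes named in the text. Differences above 1 are more frequent on the SE-higher side, and small differences are more frequent on the SE-lower side.

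Beyond the calls, the direction of the differences was not even. Of the 6577 genes, each taken by its kept probe set of highest mean, 2580 (39.2%) had the higher mean in SE and 3997 (60.8%) the lower, with a median difference of -0.058. In 601 genes (9.14%) every SE pool lay below every HE pool, and in 264 genes (4.01%) every SE pool lay above. Large differences leaned the other way: 130 genes (1.98%) were more than 1 higher in SE and 31 (0.471%) more than 1 lower. SE pool 2 was the highest pool in 143 of the 264 genes and the lowest in 317 of the 601. The share with the higher mean in SE depended on scaling. It was 45.1% after further quantile normalization, 48.7% with each array centred on its median and 51.3% without the filter. For probe sets kept through the SE arrays alone (230) or the HE arrays alone (211), the filter favoured a higher mean in that group. At an unadjusted p under 0.05 limma counted 332 probe sets higher (2.61%) and 689 lower (5.41%).

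Several genes of transport, metabolism and secretion had their groups apart on the lower side in SE, without passing the test. GPLD1, a phospholipase that cuts lipid-anchored proteins from membranes, read 9.06, 8.54 and 8.20 in HE and 7.34, 6.56 and 6.13 in SE. The groups were 0.86 apart, and the 3.79-fold lower SE signal (-1.92, standard error 0.29) had an adjusted p of 0.141 in limma; without SE pool 1 it was -2.25, with an adjusted p of 0.0246. CRYGS, a gamma-crystallin, read 11.53, 12.91 and 12.66 in HE against 9.77, 10.94 and 11.46 in SE, a difference of -1.64 that leaves the groups 0.07 apart. HCRTR1, an orexin receptor, read 7.76, 6.96 and 7.16 in HE and 4.90, 6.03 and 6.39 in SE (-1.52). On day 7 the pools of GPLD1, CRYGS and HCRTR1 all lay below 4, between 2.27 and 3.30, so these transcripts were above the filter on day 0 and not on day 7.

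STC1, a secreted glycoprotein hormone of the uterine epithelium, read 7.31, 6.61 and 7.24 in HE and 5.26, 5.26 and 6.44 in SE. Its difference was -1.40 (standard error 0.31; limma, adjusted p = 0.401), and without SE pool 3 it was -1.79, with an adjusted p of 0.0469. A trio of conjugating or oxidising enzymes was also lower in each SE pool than in each HE pool. UGT1A6, which attaches glucuronic acid to hormones and drugs, was nearly level over the HE pools, at 10.16, 10.06 and 10.18, and read 8.37, 8.83 and 9.53 in SE (-1.22). SULT1B1, a sulphotransferase, differed by -1.37, with all SE pools below 4. It was kept through the HE arrays alone, so it had to be lower in SE and no test is read from it. DDO, which oxidises D-aspartate, differed by -1.25.

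**Figure D2:**
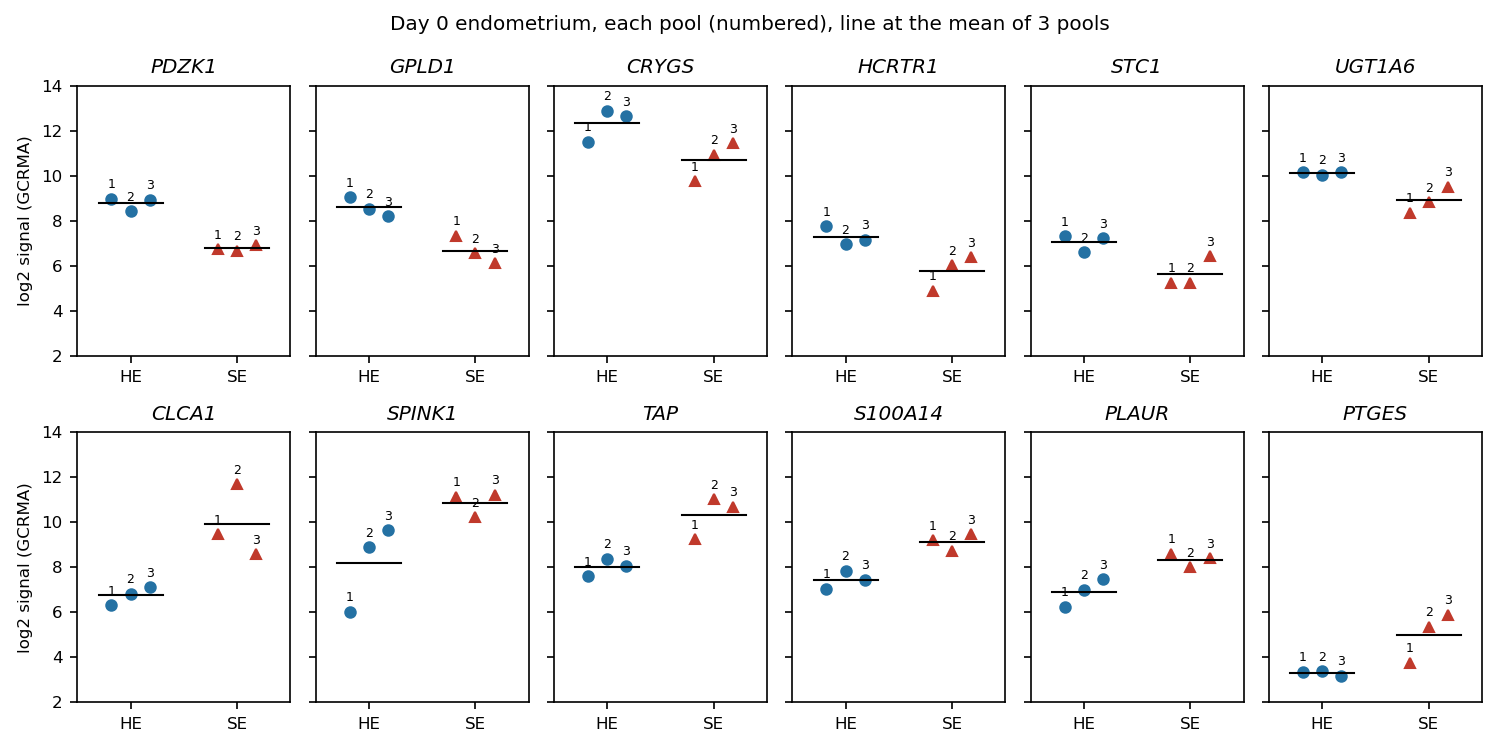
Log2 signal of 12 genes in each day 0 pool, HE as circles and SE as triangles with pool numbers, and a line at the mean of 3 pools. The upper row holds genes lower in SE and the lower row genes higher in SE, chosen by their p or difference; the groups do not overlap in any panel, and the spread is widest in CLCA1 (SE) and SPINK1 (HE).

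Cell-surface and signalling genes with groups apart on the lower side included ITGB6, the beta subunit of an epithelial integrin that activates TGF-beta. It read 4.52, 4.76 and 4.59 in HE and 3.78, 3.60 and 3.94 in SE (-0.84, adjusted p = 0.141). It was kept through the HE arrays alone, so it had to be lower in SE. Without the filter on low values its adjusted p was 0.04 in limma. OOEP, known as an oocyte protein, read 8.70, 8.83 and 8.03 in HE against 6.95, 7.57 and 6.99 in SE (-1.35). WRN, a DNA helicase, differed by -1.12, the junctional membrane protein JPH1 by -1.00 and AFG1L, a mitochondrial ATPase, by -0.89 (limma, adjusted p = 0.152). ANKRD50, an endosomal recycling protein, differed by -1.03, and without SE pool 1 its adjusted p was 0.0246. For ERLIN1 and TMLHE the pools lay close together within each group. ERLIN1, which organises lipid rafts of the endoplasmic reticulum, read 6.42, 6.42 and 6.41 in HE and 5.82, 5.57 and 5.76 in SE (-0.70). TMLHE, the first enzyme of carnitine synthesis, read 7.76, 7.46 and 7.63 in HE and 6.92, 6.93 and 6.92 in SE (-0.69), and its other probe set differed by -0.70. Where a gene had several probe sets they did not always match in size: the lipase DDHD2 differed by -1.06 and -0.43, and the ubiquitin ligase UBE3B by -0.88 to -0.19 over 4 probe sets.

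Wnt, Hedgehog and Notch signalling genes were mostly lower in SE, with 15 of 18 kept members below the HE mean against 60.8% of all genes, and a median of -0.31. The filter kept 18 of the 30 on the array; 4 of the 18 had all SE pools below all HE pools (9.14% of all genes did), 0 the reverse (4.01%), and 0 passed the test. WNT11, a ligand of non-canonical Wnt signalling, read 4.25, 3.81 and 4.05 in HE and 2.55, 2.57 and 3.34 in SE. No SE pool exceeded 4, and the difference was -1.22. WNT11, among the 4 members apart, was kept through the HE arrays alone. The filter thus favoured a lower SE signal, and no test is read from WNT11. LEF1, the nuclear partner of beta-catenin, differed by -0.62, the Notch ligand DLL4 by -0.50 and the Wnt receptor FZD10 by -0.63, the last with overlapping pools. TLE1, a corepressor that binds LEF1-type factors, differed by -0.76 and -0.82 in 2 of its 3 probe sets and by 0.03 in the dimmest. All 30 Wnt, Hedgehog and Notch genes, low ones included, had a median of -0.02.

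In signalling from Toll-like receptors to NF-kB, 19 of 27 kept genes had the lower mean in SE (median -0.16), a share not far from the 60.8% of all genes. Of the 27, 8 had groups apart in that direction (9.14% of all genes did) and 0 in the other (4.01%), and 0 passed the test. The differences were small, and the pools close together. TICAM2, an adaptor of TLR4, read 6.98, 7.10 and 7.11 in HE and 6.61, 6.72 and 6.67 in SE (-0.40, standard error 0.11; limma, adjusted p = 0.528). RIPK2, the kinase downstream of the NOD receptors, read 9.54, 9.41 and 9.43 in HE and 9.04, 8.78 and 9.13 in SE (-0.48). TAB2, an adaptor of the TAK1 kinase, differed by -0.39 in the brighter of its probe sets. MYD88, TRAF6 and TOLLIP, chosen after their values were seen, sit at the centre of the pathway as adaptor, ubiquitin ligase and inhibitor, and differed by -0.25, -0.28 and -0.20, each with its groups apart. The receptor TLR4 itself, which binds bacterial lipopolysaccharide, differed by -0.50 with overlapping pools. On the higher side the largest test statistics were those of TLR6 (0.49), the inflammasome protease CASP1 (0.72) and CD14, the co-receptor of TLR4 (0.81). All had overlapping pools, and CASP1 was kept through the SE arrays alone. CD14 turned to -0.09 without SE pool 2, where it was highest at 9.99. Its dimmer probe set differed by 0.86 with overlapping pools.

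Of 11 kept cytokine receptors 8 were below the HE mean (median -0.20), again not far from the 60.8% of all genes, and 3 had groups apart on that side (9.14% of all genes did). IL1R1, the signalling receptor of interleukin 1, read 8.05, 8.29 and 8.47 in HE and 7.71, 7.32 and 7.77 in SE, a difference of -0.67 (standard error 0.18; limma, adjusted p = 0.521). IL6R, the interleukin 6 receptor, differed by -0.71 and -0.93 in its probe sets, each with groups apart. IFNAR2, a chain of the type I interferon receptor, differed by -0.30. The accessory chain IL1RAP was the receptor with the largest statistic on the higher side, at 0.36.

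The ligands and the neutrophil genes did not sort by status in this way; they varied from pool to pool. IL1B, the central inflammatory interleukin, read 4.83, 2.23 and 2.29 in HE and 6.75, 2.96 and 8.55 in SE. CXCR1, the neutrophil receptor of CXCL8, read 6.48, 2.49 and 2.90 in HE and 8.16, 3.09 and 7.62 in SE. In both, HE pool 1, SE pool 1 and SE pool 3 were high and the other pools were near background, so a healthy pool carried the signal and a subclinical pool did not. IL1A followed this order (4.29, 3.10 and 2.97 in HE against 5.83, 3.16 and 6.03 in SE). IL1A, IL1B and CXCR1 were kept through the SE arrays alone, so the filter favoured a higher SE mean. S100A9, a subunit of the neutrophil protein calprotectin, was likewise high in HE pool 1, at 7.99 against 4.05 and 3.77, and read 7.54, 6.19 and 10.60 in SE.

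LAP, the lingual antimicrobial peptide, a beta-defensin of epithelia, ranged most widely of these, with 8.20, 2.60 and 2.62 in HE and 6.92, 6.10 and 11.40 in SE. CXCL8, which draws neutrophils, read 9.88, 8.19 and 7.19 in HE and 10.55, 8.74 and 11.64 in SE. The mean differences were large, with wide errors. They were 2.97 (standard error 1.25) for IL1B, 2.33 (1.34) for CXCR1, 3.66 (1.88) for LAP and 1.89 (1.13) for CXCL8. For CXCL8 the adjusted p was 0.705 in limma. LAP, like IL1B and CXCR1, was kept through the SE arrays alone, so no test is read from these genes. Leaving out HE pool 1 moved the differences up, to 3.83 for IL1B and 5.53 for LAP, and leaving out SE pool 3 moved them down, to 1.74 and 2.03.

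**Figure D3:**
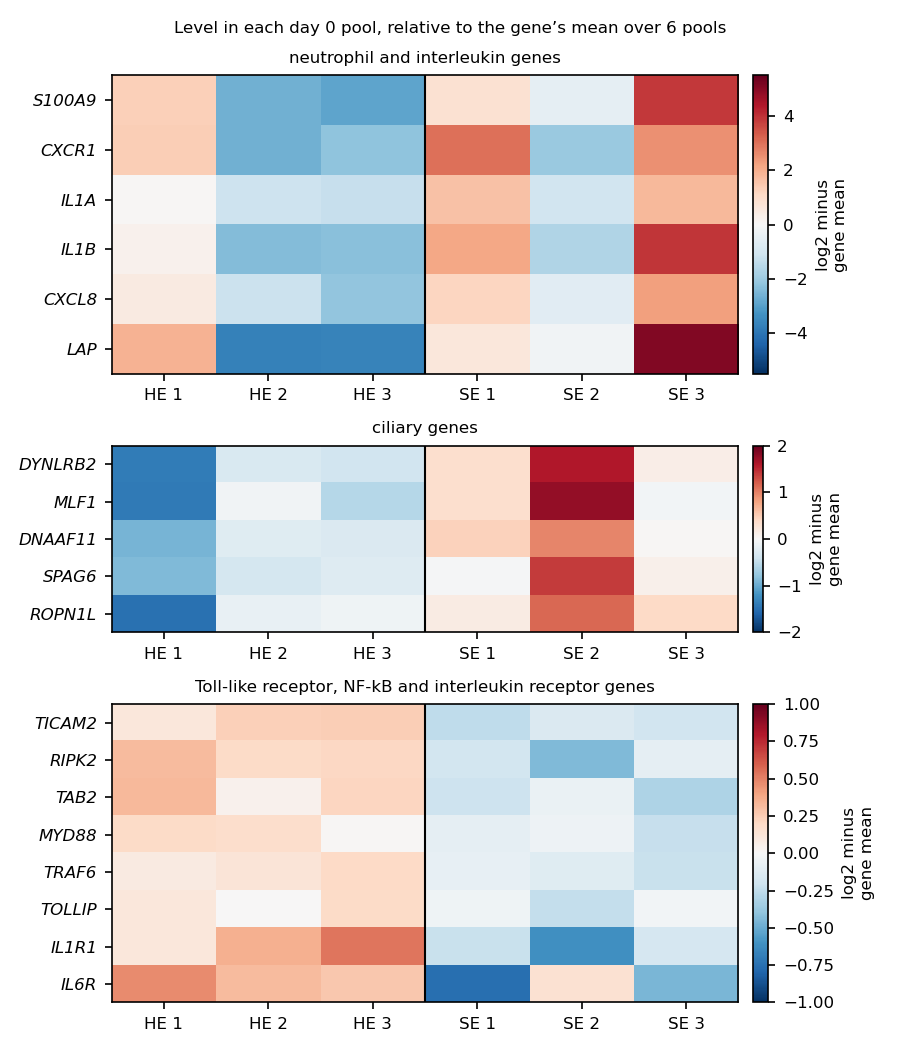
Log2 signal of a gene in each day 0 pool minus its mean over the 6 pools, red above and blue below, with a scale of its own for each block. Neutrophil and interleukin genes are high in HE pool 1 and SE pools 1 and 3, ciliary genes are highest in SE pool 2 and lowest in HE pool 1, and the genes of the lowest block, most of them picked for groups that do not overlap, are lower in the SE pools; IL6R in SE pool 2 is the exception, above the gene's mean yet below every HE pool.

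Of 29 neutrophil markers on the array only 10 passed the filter, and the granule genes MPO and ELANE were not among them. Of the 10, 8 had the higher mean in SE, with a median of 0.59, and 0 had groups apart (4.01% of all genes were apart on the higher side). Over all 29 without the filter the median was 0.01. The mean over the 29 markers ran from 3.84 to 4.37 in the HE pools and from 4.24 to 4.68 in the SE pools. Pro-inflammatory cytokines had 5 of 6 kept members higher (median 0.86; 0.02 for all 20 on the array). The antagonist IL1RN, which occupies the interleukin 1 receptor, followed the pools in the same way, at 8.11, 6.22 and 7.35 in HE and 8.40, 7.18 and 9.82 in SE. Chemokines had 12 of 14 kept members higher, with a median of 0.46 and 1 with groups apart (4.01% of all genes). It was CXCL2, a chemokine that draws neutrophils, which read 7.32, 7.84 and 7.76 in HE and 8.14, 8.41 and 9.01 in SE (0.88).

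Among other secreted defence proteins, TAP, the tracheal antimicrobial peptide, another beta-defensin, was higher in every SE pool than in every HE pool. It read 7.62, 8.38 and 8.07 in HE and 9.25, 11.04 and 10.70 in SE. The groups were 0.87 apart, and the 4.95-fold higher signal (2.31, standard error 0.58) had an adjusted p of 0.506 in limma. A lysozyme gene, LYZ2, read 7.34, 7.02 and 7.01 in HE and 8.45, 8.46 and 8.46 in SE (1.34, adjusted p = 0.141). Its brighter probe set differed by 0.51 with overlapping pools; without day 7 SE pool 3 in the fit the adjusted p of the first was 0.0481. All 14 kept acute phase and antimicrobial genes had the higher mean in SE, with a median of 0.55, against 39.2% of all genes. Only 1 of the 14 had its groups apart (4.01% of all genes did), and 0 passed the test. The median was 0.14 without SE pool 2, which was the highest pool for LBP, a carrier of bacterial lipopolysaccharide (10.99 there and 7.04 to 9.25 elsewhere), and for the enteric beta-defensin EBD (11.95 there).

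CLCA1, a secreted protein of mucous cells, had the largest difference of any named gene with groups apart. It read 6.33, 6.84 and 7.12 in HE and 9.47, 11.69 and 8.58 in SE, 8.85-fold higher (3.15, standard error 1.05; limma, adjusted p = 0.569). The lowest SE pool was 1.45 above the highest HE pool. SPINK1, an inhibitor of trypsin, read 6.03, 8.89 and 9.66 in HE and 11.14, 10.23 and 11.24 in SE; HE pool 1 lay far below the rest, and without it the difference was 1.60 in place of 2.68. Of the 13 kept genes for mucus and gel proteins 12 had the higher mean in SE (median 0.80, and 0.40 without SE pool 2). They include FUT2, which fucosylates mucins (1.47), and the mucus glycoprotein OLFM4 (0.78), both with overlapping pools.

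Several single genes picked for their p or difference were also apart on the higher side. S100A14, a calcium-binding protein of epithelia, read 7.05, 7.86 and 7.46 in HE and 9.20, 8.74 and 9.47 in SE, a 3.21-fold difference (1.68, standard error 0.27; limma, adjusted p = 0.172). The groups were 0.88 apart, and the SE pools lay close together. PLAUR, the receptor of urokinase, read 6.26, 7.02 and 7.47 in HE and 8.62, 8.01 and 8.42 in SE (1.43, adjusted p = 0.438). KRT17, a keratin of basal and wounded epithelium, read 4.58, 5.72 and 5.43 in HE and 5.99, 8.52 and 7.29 in SE (2.02). PDPN, a mucin-like membrane protein, differed by 1.58 and VNN2, a lipid-anchored pantetheinase, by 1.80, both highest in SE pool 2. Of 20 kept S100 and annexin genes 19 had the higher mean in SE (39.2% of all genes did), 5 with groups apart (4.01% of all genes) and a median of 0.34; 0 passed the test. Among these were ANXA8L1 (0.70) and S100A13 (0.66).

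CTSC, the peptidase that activates neutrophil serine proteases, read 8.23, 8.67 and 8.08 in HE and 9.44, 9.60 and 9.30 in SE (1.12, standard error 0.21; limma, adjusted p = 0.281). PTAFR, the receptor of platelet-activating factor, read 3.81, 3.59 and 4.46 in HE and 5.22, 5.06 and 5.52 in SE (1.31). PTAFR was kept through the SE arrays alone, so the filter favoured a higher SE signal and no test is read from it. A2M, a broad protease inhibitor, differed by 0.78, and SERPINB1, an inhibitor of neutrophil elastase, by 0.51. For CTSC, HE pool 1 lay with the other HE pools and SE pool 2 with the other SE pools, which was not so for the interleukins. Complement and coagulation genes had 16 of 21 kept members higher (median 0.40, where 39.2% of all genes were higher). Groups were apart in 4 (4.01% of all genes), CFB of the alternative pathway among them (1.06, and 0.46 without SE pool 2). The groups of CFB barely separate: its highest HE pool and its lowest SE pool both read 10.53.

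Antigen-presenting cells gave a narrower pattern. Macrophage and dendritic markers had 9 of 10 kept members higher in SE (39.2% of all genes were), with a median of 0.55 and 4 with groups apart (4.01% of all genes); 11 on the array were not kept. AIF1, a cytoskeletal protein of macrophages, read 5.42, 5.19 and 5.51 in HE and 6.19, 5.97 and 6.47 in SE (0.84, adjusted p = 0.622). C1QA and C1QB, complement chains made by macrophages, differed by 0.75 and 0.67, with HE pool 1 lowest for both. MHC class II genes had 9 of 12 kept members higher, with a median of 0.20, 5 of them apart on that side (4.01% of all genes were) and 1 member apart on the lower (9.14%). BOLA-DRA, the invariant alpha chain of the DR molecule, read 8.95, 9.56 and 9.12 in HE and 10.65, 9.98 and 9.77 in SE (0.92, standard error 0.34; limma, adjusted p = 0.571). BOLA-DQA2 differed by 1.22 and 1.34 in its probe sets. BOLA-DQB1 read higher in 4 of 5 probe sets, which ranged from -0.08 to 1.36; the DQ and DR genes are polymorphic and have close copies, so probe sets can cross-hybridise. The member apart on the lower side was LGMN, a lysosomal protease that processes antigen (-0.55). In these bulk samples, more cells of a type and more RNA per cell cannot be told apart.

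Plasma cell and B cell genes had 5 of 5 kept members higher, though only JCHAIN had groups apart (4.01% of all genes did). JCHAIN, which joins IgA and IgM chains, read 8.71, 9.02 and 9.84 in HE and 10.94, 11.26 and 11.91 in SE, 4.53-fold higher (2.18, standard error 0.91; limma, adjusted p = 0.601). IGHM, the IgM heavy chain, was low in HE pool 1 alone, at 4.69 against 8.13 to 10.42 elsewhere, and its difference of 2.01 was 0.80 without that pool. PIGR, which carries these antibodies across the epithelium, was highest in SE pool 2 at 11.59 (1.17). T cell and cytotoxic markers had 12 of 15 kept members higher with a median of 0.15 and 2 with groups apart (4.01% of all genes were). Their median was 0.03 without SE pool 2.

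Ciliated cell genes had the widest shift of the cell-type lists with 10 or more kept members. All 13 kept members had the higher mean in SE (39.2% of all genes did), 6 had groups apart (4.01% of all genes did), 0 passed the test, and the median was 0.99. DYNLRB2, a light chain of ciliary dynein, read 7.27, 8.36 and 8.28 in HE and 9.0, 10.26 and 8.80 in SE (1.39, standard error 0.41; limma, adjusted p = 0.546). DNAAF11, which assembles dynein arms and was kept through the SE arrays alone, so that it had to be higher there, read 3.11, 3.79 and 3.74 in HE and 4.50, 5.02 and 4.06 in SE (0.99). MLF1 differed by 1.36, the radial spoke protein ROPN1L by 1.15 and SPAG6, of the axoneme's central pair, by 0.99. The order of pools was alike in these genes, with HE pool 1 lowest and SE pool 2 highest, and the list median was 0.60 without SE pool 2 and 1.26 without SE pool 1. Genes of intraflagellar transport, which many cells use for a primary cilium, differed less: 12 of 16 were higher with a median of 0.10, and -0.03 without SE pool 2. IFT27 (0.52) and ARL3 (0.57) were the members with groups apart (4.01% of all genes were). A dimmer IFT27 probe set differed by 0.38 with overlapping pools.

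General epithelial markers differed by less, with 11 of 17 higher (39.2% of all genes were) and a median of 0.18. Of the 17, 3 had groups apart on the higher side (4.01% of all genes did) and 0 on the lower (9.14%), and 0 passed the test. CLDN3, a tight junction protein, read 9.30, 9.40 and 9.15 in HE and 9.61, 9.83 and 9.47 in SE (0.36), KRT18 differed by 0.18 and EPCAM by -0.11. Stromal genes varied with the pool. 15 of 18 had the higher mean in SE, yet 0 had groups apart on that side (4.01% of all genes did) and 1 on the lower side (9.14%). The list median by pool, relative to the HE mean, was -0.02, -0.54 and 0.54 in HE and 1.16, -0.09 and 0.61 in SE. VIM, an intermediate filament of mesenchymal cells, read 8.90, 8.77 and 9.82 in HE and 10.36, 9.75 and 9.87 in SE (0.83). The median stromal difference was 0.29 without HE pool 2 and 1.06 without HE pool 3. Among matrix genes COL12A1, a fibril-associated collagen, was at background in HE (2.48 to 2.54) and read 4.35, 5.96 and 2.58 in SE. COL12A1 was kept through the SE arrays alone. Stromal levels thus differed among pools of the same status, and their part in the other differences was not tested.

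**Figure D4:**
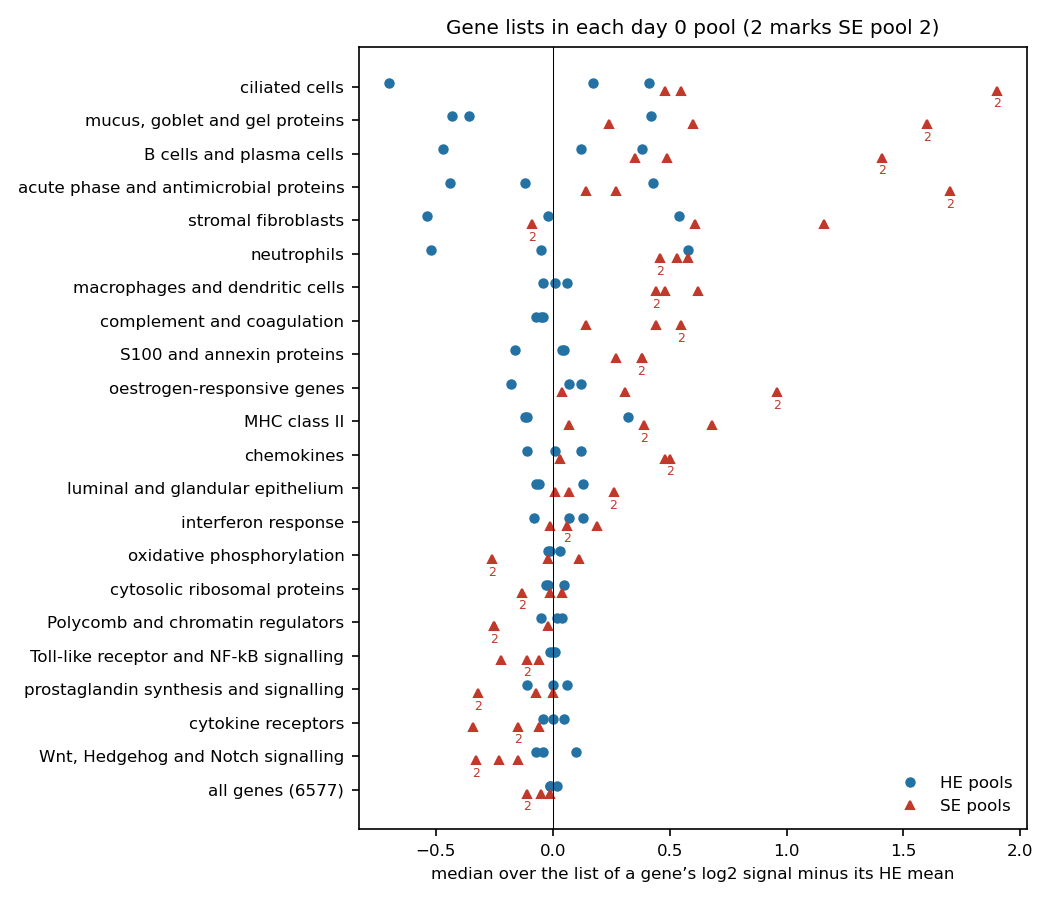
For each gene list, the median over its kept members of the log2 signal minus the gene's HE mean, in each HE pool (circles) and SE pool (triangles, SE pool 2 marked 2), with all 6577 genes at the bottom. SE pool 2 lies far to the right for ciliated cells (1.90), mucus (1.60) and antimicrobial genes (1.70), while macrophage, complement and S100 lists have the 3 SE pools together above the HE pools.

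Hormone-responsive genes had no common direction. Oestrogen-responsive genes had 15 of 21 kept members higher, with a median of 0.43 that was 0.15 without SE pool 2. Their 2 members with groups apart pointed opposite ways: PDZK1 lower (9.14% of all genes were) and PTGES higher (4.01%). Genes of progesterone and the luteal phase had 10 of 22 higher (median -0.01). RBP4, the retinol carrier, read 11.78, 12.06 and 11.45 in HE and 11.23, 11.28 and 11.32 in SE (-0.49), and the uterine serpin SERPINA14 differed by -0.44, both with groups apart. A dimmer SERPINA14 probe set differed by -0.48 with overlapping pools. LGALS3, a galectin of the luminal epithelium, was apart on the higher side (0.66).

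In prostaglandin synthesis PTGES and AKR1B1, enzymes of its end steps, differed in opposite directions, and neither passed the test. PTGES, which makes prostaglandin E2 and was kept through the SE arrays alone, read 3.37, 3.38 and 3.19 in HE and 3.76, 5.36 and 5.90 in SE. Its difference of 1.69 (standard error 0.42) had an adjusted p of 0.506 in limma, and without SE pool 1, the lowest of the SE pools, it was 2.31. Passing the filter through the SE arrays favoured a higher SE signal, so no test without a pool is read from PTGES. AKR1B1, which makes prostaglandin F2 alpha in the bovine uterus, read 13.43, 13.21 and 13.25 in HE and 12.97, 12.24 and 13.04 in SE (-0.54). PTGS2, the inducible enzyme upstream of both, read 8.92, 8.43 and 8.57 in HE and 8.47, 7.20 and 9.0 in SE, with no separation and a sign that turned from -0.42 to 0.09 without SE pool 2. The receptors PTGER2 and PTGER4 differed by -0.64 and 0.73 with overlapping pools, and the oxytocin receptor OXTR by -0.18. In the list as a whole 10 of 15 kept members were lower, near the 60.8% of all genes, 3 of them with groups apart (9.14% of all genes were).

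Related metal transport genes had opposed differences, without passing the test. SLC39A8 and SLC39A14 are sister zinc transporters that also carry manganese and iron. SLC39A8 read 9.84, 9.24 and 9.54 in HE and 8.42, 8.95 and 7.92 in SE (-1.11, standard error 0.25; limma, adjusted p = 0.401). SLC39A14 read 3.29, 3.69 and 4.04 in HE and 4.72, 5.25 and 4.31 in SE (1.09). It was kept through the SE arrays alone, so the filter favoured a higher SE signal and no test is read from it. TFRC, the transferrin receptor, read 6.13, 5.99 and 5.60 in HE and 5.45, 4.79 and 5.45 in SE (-0.67), and ACO1, an iron-responsive regulator of its mRNA, differed by -0.30. The ferrireductase STEAP3 was apart on the higher side at 0.73 in the probe set that stands for it and differed by 0.07 in the other. Over the 15 kept iron genes 8 were higher and 7 lower, with a median of 0.02. Groups were apart in 3 on the higher side (4.01% of all genes), SLC39A14 among them, and in 3 on the lower (9.14%).

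Amino acid and lactate carriers also differed in both directions, without passing the test. SLC1A5, a glutamine carrier, read 6.05, 6.04 and 6.04 in HE and 6.65, 7.97 and 6.39 in SE (0.96). SLC1A1, a glutamate carrier, and SLC3A2, the heavy chain of amino acid exchangers, differed by -0.83 and -0.49 with groups apart. SLC16A1, a lactate transporter, read 9.10, 7.68 and 8.20 in HE and 7.57, 4.95 and 7.50 in SE; the difference of -1.65 was -0.79 without SE pool 2. Of 23 kept genes of glycolysis and glucose uptake, 3 were apart on the lower side, near the 9.14% of all genes: SLC16A1, GPI (-0.34) and ALDOA (-0.26). On the higher side 1 was apart (4.01% of all genes were).

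Stress and early response genes differed gene by gene. ZFP36, which destabilises cytokine mRNAs, read 6.95, 6.87 and 7.02 in HE and 7.53, 8.03 and 7.44 in SE (0.72), and the MAP kinase phosphatase DUSP1 differed by 0.88. FOSL1, a subunit of AP-1, differed by -1.10, with every SE pool below 4. It was kept through the HE arrays alone, so the filter favoured a lower SE signal. NFE2L2, the regulator of antioxidant genes, differed by -0.29 with groups apart, and the mitochondrial superoxide dismutase SOD2 by 0.74 with overlapping pools. BCL2A1, an NF-kB-driven survival gene, read 7.30, 6.81 and 7.33 in HE and 7.99, 7.45 and 8.96 in SE (0.98), and the death receptor TNFRSF21 differed by 1.22. Interferon-response genes had a median of 0.04, with 16 of 27 higher. Groups were apart in 5 on that side (4.01% of all genes), SAMD9 (1.48) the widest. GBP4 was apart on the lower side (-0.51), where 9.14% of all genes were.

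Housekeeping lists had medians near that of all genes (-0.058), with a smaller share of members higher than the 39.2% of all genes. Oxidative phosphorylation had 24 of 73 members higher (median -0.06), ribosomal proteins 13 of 62 (-0.04) and the proteasome 6 of 33 (-0.08). These small negative medians came with SE pool 2: without it they were 0.03, 0.02 and 0.00. Polycomb and chromatin regulators had 18 of 22 members lower (median -0.12; 60.8% of all genes were lower) and 3 with groups apart, close to the 9.14% of all genes, among them the maintenance methyltransferase DNMT1 (-0.39).

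The day 0 differences were then set beside those of day 7, measured in 2 HE and 3 SE pools of endometrium in the same fit. PDZK1 differed by 0.13 on day 7, where all pools read 12.87 to 13.35, and EED by -0.06. The difference between the days was -2.14 for PDZK1, with an adjusted p of 0.171, and 0 of the 12742 probe sets (0.0%) passed limma's test of that interaction, against 486 at an unadjusted p under 0.05. It was called for 1 probe set without SE pool 2, without SE pool 3 or without day 7 HE pool 2. GPATCH2L, chosen after its values were seen, had opposite differences, with -0.81 on day 0 and 1.23 on day 7 (interaction adjusted p = 0.171). LYZ2 differed by 1.01 on day 7 against 1.34 on day 0, and CTSC by -0.53 against 1.12. CXCL8 differed by 2.30 and IL1B by 1.11 on day 7, with no test of the interaction passed.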

How the data were processed

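The deposited values are log2 GCRMA signals per probe set, which the authors computed from their scans; GCRMA and limma are named without version or order, per the submitters' processing notes. Raw scans were not used here. The 6 day 0 arrays of the comparison were fitted together with the 5 day 7 endometrium arrays, 11 in all, in R 4.3.3 with limma 3.58.1 (group means, empirical Bayes without a trend, two-sided), with Benjamini-Hochberg adjustment over the 12742 kept probe sets and a threshold of 0.05. The 112 control probe sets were left out and used for 3′ to 5′ differences. Errors are limma's standard errors; precision is limited by how many arrays there are.

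Gene names came from the platform's annotation. Of the kept probe sets 8296 carried 1 symbol, 56 several and 4390 none; the gene numbers of 13263 probe sets of the array were found in a RefSeq table. Sequences and coordinates were not used here. The 49 gene lists named 1758 symbols, of which 1247 were on the array, 22 through a synonym. Lists were described by counts and medians, with no set test.

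The genes named were all called probe sets, up to 15 per direction by p and up to 15 by difference among genes with groups apart, up to 5 members per direction of each list by the moderated t statistic, and a few chosen in advance; exceptions are marked. The comparison, lists and rules were chosen with earlier results of these data known. In tests on simulated data of the same 12742 probe sets, limma recovered 50%, 94% and 98% of 200 probe sets shifted by 1, 2 and 3 on the log2 scale. Alternatives were other filters, further quantile normalization, centring, an intensity trend, array weights, gene means, the replicate number as a block, the 6 day 0 arrays alone and each pool left out in turn; leaving out day 7 pools was chosen after seeing the data. Python 3.11.15, pandas 2.3.3 and matplotlib 3.10.9 made tables and plots.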

Additional observations from a re-analysis of the deposited data

Results flagged for a closer look

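In 7 of the 129 named genes every SE pool lay on one side of every HE pool on day 0 and on the other side on day 7. limma's test of the interaction was passed by none of them. The differences, day 0 first, were 1.12 and -0.53 for CTSC (interaction adjusted p = 0.599), 2.02 and -0.88 for KRT17 (adjusted p = 1.000), and -0.81 and 1.23 for GPATCH2L (adjusted p = 0.171). The corepressor TLE1 went from -0.76 to 0.38 (adjusted p = 0.752) and the uterine serpin SERPINA14 from -0.44 to 0.57. Another TLE1 probe set went from -0.82 to 0.04, with overlapping pools on day 7. IFT27 of intraflagellar transport went from 0.52 to -0.30, and the tight junction gene CLDN3 from 0.36 to -0.19. The other probe sets of SERPINA14 and IFT27 had overlapping pools on day 0. For SERPINA14, IFT27 and CLDN3 the interaction's adjusted p was 1.000. The 2 HE pools of day 7 make such a pattern easier to reach there than on day 0. Many of the named genes were picked for groups apart on day 0, and the share over all genes was not counted. The number of such genes is thus not read as a result.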

How the results depend on the processing

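The count of called probe sets, 3 in the fit described, was 7 without a filter (2 higher and 5 lower), 1 with the mean of each gene's probe sets and 0 in the 6 day 0 arrays alone, where the smallest adjusted p was 0.235 and 889 probe sets had an unadjusted p under 0.05. With single day 0 pools left out it ran from 0 (without HE pool 3) to 11 (without SE pool 1), with 1 without HE pool 1 or 2, 3 without SE pool 2 and 6 without SE pool 3; with a day 7 pool left out it was 1, or 3 without day 7 SE pool 3. The interaction, with 0 called, had 1 called without SE pool 2, SE pool 3 or day 7 HE pool 2, and 0 in the other alternatives run. The count stayed at 3 with the stricter filter, the 11-array filter, quantile normalization, centring, an intensity trend and array weights. A replicate block left 0 called, both over 11 arrays (smallest adjusted p = 0.0842; 933 at an unadjusted p under 0.05) and over the 6 day 0 arrays (smallest adjusted p = 0.178; 960). Pools of the same number share only that number: their deviations correlated at 0.06, 0.25 and -0.08 across probe sets. Of 129 named genes, each followed by 1 probe set, CD14 and PTGS2 changed sign, both without SE pool 2. With single day 0 pools left out CD14 ran from -0.09 to 1.44 and PTGS2 from -0.80 to 0.09, and no sign changed with another scaling or filter. Of 44 list medians with at least 5 kept members, 12 moved by more than the spread between pools without the filter and 9 without SE pool 2, and 0 moved with quantile normalization or centring. With 3 day 0 pools a side among 11 simulated arrays, changes of 1 on the log2 scale were recovered in 50% of cases. Smaller differences could thus not be tested well. The simulated arrays had equal spread, with no pool set apart as SE pool 2 was, so recovery in the real data may be lower.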

Other observations

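A few further genes had their groups apart, and 0 of them passed the test. FGF2, a growth factor of stroma and epithelium, read 3.78, 3.22 and 3.74 in HE and 4.98, 5.11 and 3.80 in SE (1.05), with SE pool 3 close to the HE pools. FGF2 was kept through the SE arrays alone, so the filter favoured a higher SE signal. IGFBP6, which binds insulin-like growth factor 2, read 8.87, 8.91 and 9.22 in HE and 10.06, 9.73 and 9.71 in SE (0.83). These were the members apart among 21 kept growth factor genes (4.01% of all genes were), of which 14 were higher (median 0.25). H1-2, a linker histone, read 5.98, 6.96 and 6.10 in HE and 7.61, 8.37 and 7.27 in SE (1.40). HSF2BP, a meiotic recombination factor, read 4.54, 4.69 and 4.89 in HE and 5.35, 5.61 and 5.28 in SE (0.71).

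In lipid metabolism CD36, a fatty acid and scavenger receptor, read 2.51, 3.33 and 3.43 in HE and 4.05, 5.10 and 3.94 in SE (1.28), kept by the SE arrays. NPC2, a lysosomal cholesterol carrier, was apart on the higher side (0.50), and FDFT1, squalene synthase, on the lower, at -0.41 and -0.74 in its probe sets. Cholesterol synthesis as a list had 14 of 21 genes lower (median -0.08), and 0.06 without SE pool 1. Among channels KCNJ16, an inwardly rectifying potassium channel, read 6.91, 6.81 and 6.64 in HE and 6.33, 6.33 and 6.13 in SE (-0.52). AQP3, a water and glycerol channel, was at 2.12 to 2.13 in HE and read 2.07, 5.22 and 4.01 in SE. SE pool 1 was thus at the HE level. The difference was 1.64 (limma, adjusted p = 0.569), and AQP3 was kept through the SE arrays alone.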
